A study of Vitis vinifera with 3 samples.

Results

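CG sites outside gene models that were less methylated after first growth were examined in berries of the grapevine cultivar Fujiminori. They were the regions of the authors' CG tables against first growth that lay on the 19 numbered chromosomes, had no gene model in the annotation column and had a lower level in the later library. The tables gave 2636 such regions at véraison and 2760 at maturity, so 5396 of the 9309 CG entries of both tables and of 377997 entries in the whole series. The series held 3 whole-genome bisulfite sequencing libraries, from berries at first growth (40 days after flowering), véraison (65 days, the onset of ripening) and maturity (90 days). There was 1 library per stage, and véraison and maturity were both set against the same first growth library. Per the labels' protocols, DNA came from the fruits. A pool of berries from several bunches is described for RNA only, and no source used here says whether seeds or skins were removed. In such bulk tissue, fewer cells of a type and less methylation per cell cannot be told apart.

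In plants, CG methylation is copied to the new strand after DNA replication by a maintenance methyltransferase that acts on sites methylated on 1 strand. Outside genes it lies mainly on transposons and other repeats, usually together with CHG methylation (H is A, C or T) and, on many of them, CHH methylation that small RNAs guide. A CG level can fall because copying is incomplete during cell division or because DNA glycosylases cut methylated cytosines out. In tomato, another fleshy fruit, such a glycosylase is known to be needed for ripening.

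The regions were selected on their CG levels at first growth and at the later stage, so the differences are a description of 3 libraries and carry no test. At véraison the median level of the regions in CG was 16% (quartiles 9 and 23%), against 38% (27 and 52%) at first growth. The median difference was -23 percentage points (quartiles -30 and -17). At maturity the median was 15% (8 and 23%), against 39% (27 and 54%) at first growth, with a median difference of -24 points (-31 and -17). The 5th and 95th percentiles of the difference were -43 and -9 points at véraison, and -44 and -9 points at maturity. Differences of at least 40 points made up 8.0% of the véraison regions and 9.35% of the maturity regions. Differences of at least 60 points were listed for 15 regions at véraison and 34 at maturity. At most 10% of the first growth level was kept in 137 véraison regions (5.2%) and 187 maturity regions (6.78%).

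All CG regions of a table give the background for these counts. At véraison 81.2% of the 4479 CG regions on numbered chromosomes were lower, and 82.7% of the 3189 outside gene models. At maturity the shares were 79.3% of 4817 and 81.5% of 3387. The surplus of losses was therefore near that of the tables as a whole. The losses outside gene models are themselves 2636 of those 4479 regions and 2760 of those 4817, so this is partly built in. Inside gene models, 1002 losses stood against 288 gains at véraison, and 1061 against 369 at maturity. Joined where they overlapped, the losses covered 1085.2 kb at véraison and 1162.0 kb at maturity. The 553 and 627 CG gains outside gene models covered 139.9 and 167.0 kb.

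How far a region could fall was bounded by how it came to be listed. In 0 of the 377997 entries were the levels closer than 2-fold once rounding was allowed for, and the lower level was never above 50%. A fully methylated region could thus be listed only when it fell to 50% or less, and a region above 50% at first growth could not be listed as a gain at all. Among the losses, 27.5% of the véraison regions and 30.0% of the maturity regions started above 50%. The later level was a median of 42.4% of the first growth level at véraison and 41.3% at maturity, and the upper quartile of 47.4% in both sat close to that floor.

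**Figure D1:**
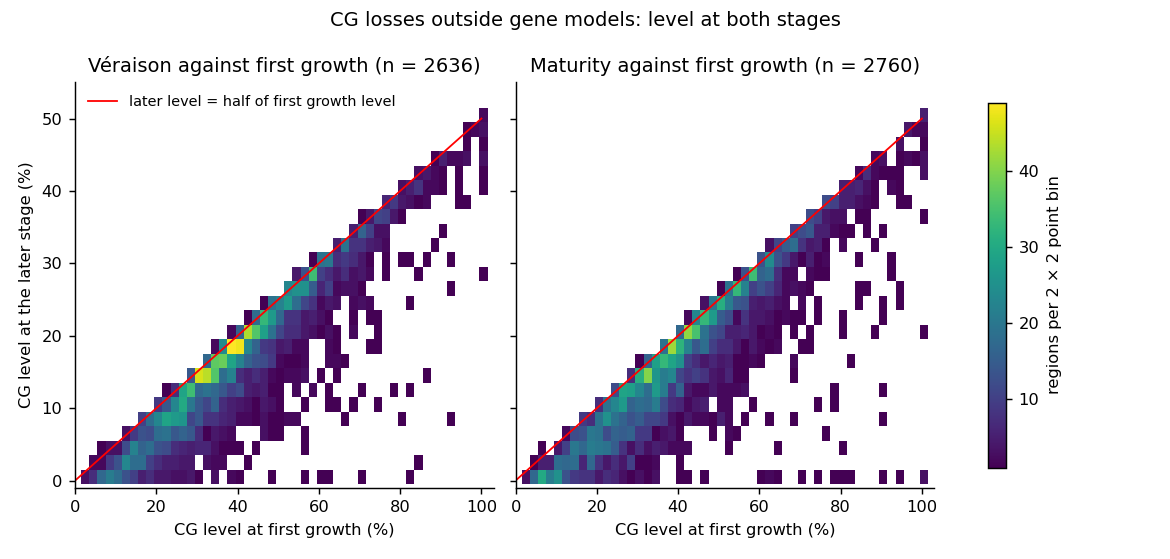
Colour shows the number of CG losses outside gene models per bin, with the CG level at first growth on the x axis and at véraison (left, n = 2636) or maturity (right, n = 2760) on the y axis, both in percent. Regions crowd below the red 2-fold line, and few lie far below it.

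The depth of the fall varied with where a region started. Regions at 21 to 40% at first growth were the most frequent class, with 1066 at véraison and 1073 at maturity, and had a median later level of 12% at each stage. The 809 and 813 regions that started at 41 to 60% had 21% at each stage. Those that started at 81 to 100%, 85 at véraison and 116 at maturity, still had 41% and 40.5%. Regions at 10% or less kept 1% at véraison and 0% at maturity. Low-starting regions as listed kept the smaller share of their first growth level, 11.1% at véraison and 0% at maturity, against 47.1% and 46.4% in those starting above 80%. The same levels decided which regions were listed, so how far this trend comes from the selection cannot be told. High-starting regions were also shorter, with medians of 205 and 160 bp against 429 and 458 bp for those at 21 to 40%. A level of 0% was listed for 68 regions at véraison and 114 at maturity, which had medians of 11.5% and 11% at first growth.

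Losses were longer than gains. The median length was 389.5 bp at véraison and 400.0 bp at maturity, against 226 and 237 bp for CG gains outside gene models. Regions under 100 bp, 101 at véraison and 85 at maturity, had the larger differences, with medians of -33 and -36 points. Regions of 600 bp or more had -21 points at both stages. The median p in the authors' deposited table was 0.000175 and 0.000123 in the short class, and 2.17e-07 and 1.74e-07 in the long one. The read coverage behind the levels is unknown.

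The p of the largest decreases at véraison spanned a wide range around the median of 6.18e-06 over all véraison losses. A region of 363 bp on chromosome 19, from 23245564 to 23245926, had 8% at véraison, against 93% at first growth, where the authors' deposited table gave p = 1.18e-10. A stretch of 83 bp on chromosome 18 (27788702 to 27788784) had 0% at véraison and 83% at first growth, with p = 0.000221 in the authors' deposited table. Both thus lost nearly all CG methylation, but the second rests on a short stretch. A region of 194 bp on chromosome 15, from 17716855 to 17717048, had 2% at véraison and 84% at first growth (p = 5.98e-23 in the authors' deposited table). A stretch of 94 bp on chromosome 12 (2024263 to 2024356) had 9% at véraison and 81% at first growth, and p = 2.93e-21 in the authors' deposited table. The chromosome 12 region lay 2.09 kb upstream of the gene model VIT_12s0028g01360.t01, for which no function was assigned. The fifth, on chromosome 9 from 16932885 to 16932998, had 14% at véraison and 86% at first growth, and the weakest p of the 5, 0.0011 in the authors' deposited table. None of these 5 regions overlapped a listed CHG or CHH region of véraison against first growth.

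At maturity, 3 regions were listed at 0%, against 100% at first growth. They lay on chromosome 15 (6973826 to 6974006), chromosome 10 (15849550 to 15849697) and chromosome 18 (9939575 to 9939877). Their p in the authors' deposited table was 3.93e-09, 0.000549 and 0.00126, in that order, so the complete loss on chromosome 18 had one of the weaker p. On chromosome 2, from 10104343 to 10104502, the level was 0% at maturity and 95% at first growth. On chromosome 19, from 7421904 to 7422107, it was 0% at maturity and 90% at first growth.

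By p, other places led, and most of these regions kept part of their CG methylation. First among the losses outside gene models of both tables stood 506 bp on chromosome 14, from 29539737 to 29540242. It lay 3.47 kb upstream of VIT_14s0108g00860.t01. Its CG level stood at 87% (first growth), 39% (véraison) and 34% (maturity), where the authors' deposited tables gave p of 1.19e-45 and 2.54e-52. On chromosome 11 (2913132 to 2913610) the level stood at 48% (first growth), 9% (véraison) and 6% (maturity). On chromosome 19, from 3431777 to 3432317, it was 7% at véraison and 47% at first growth. On chromosome 17, from 2155649 to 2156333, it was 24% at véraison and 71% at first growth. On chromosome 4, from 4302167 to 4302833, the level was 44% at maturity and 91% at first growth, and an overlapping CHG region had 21% at maturity and 57% at first growth. On chromosome 9, from 1287426 to 1288614, CG was 5% at maturity and 35% at first growth, CHG was 10% and 41%, and CHH was 1% and 16%. Methylation was thus lower in all 3 contexts there. The chromosome 14 region, by contrast, overlapped a CHH region that was higher, with 11% at maturity and 1% at first growth. The chromosome 11 region overlapped a CHH region with 0% at véraison and 5% at first growth. On chromosome 15, from 18130010 to 18130340, CG was 4% at maturity and 53% at first growth. For the regions on chromosomes 15, 17 and 19, no CHG or CHH region was listed.

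A small p did not always mean a large difference. The second smallest p among the véraison losses, 1.06e-42 in the authors' deposited table, belonged to 678 bp on chromosome 9, from 12312337 to 12313014. Its CG level was 4% at véraison and 7% at first growth. The CHG regions listed there were as low, at 3, 2 and 6% at véraison and 6, 3 and 13% at first growth. The longest of the losses outside gene models were of intermediate level. On chromosome 14, from 23423665 to 23425493, 1829 bp had 18% at véraison and 38% at first growth. The midpoint of this region lay inside a gene model listed elsewhere in the tables, although its own annotation named none. On chromosome 3, from 3182714 to 3184180, 1467 bp had 27% at véraison and 57% at first growth. Its midpoint lay 0.193 kb downstream of a listed gene model, so the region reached into that model. At maturity the longest lay on chromosome 3 (6550290 to 6551774), with 14% at maturity and 32% at first growth, and on chromosome 14 (26472297 to 26473754), with 19% at maturity and 42% at first growth.

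Close to the limit of the rule, a region on chromosome 10, from 4903237 to 4904155, had 1% at véraison and 3% at first growth. One on chromosome 7, from 12373909 to 12374289, had 1% at maturity and 2% at first growth. Just outside the rule, overlapping regions on chromosome 15, from 19559862 to 19560253 at véraison and from 19559833 at maturity, had 3% at the later stage and 0% at first growth.

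Both later stages shared many of the losses, and both use the same first growth library. Of the véraison losses, 1151 (43.7%) overlapped a maturity loss outside gene models by at least 1 bp, and 1147 (41.6%) of the maturity losses overlapped a véraison loss. Any CG region of the other table was overlapped by 44.5% of véraison losses and 42.1% of maturity losses, against 41% and 38.1% of all CG regions. The losses themselves are 2636 of those 4479 CG regions and 2760 of those 4817. By the same measure, CG losses inside gene models had 38.8% and 37.2%. Gains had 32.7% and 28.9% outside gene models, and 31.6% and 26.0% inside. Losses found in both tables had median differences of -24 points at each stage. Losses found in 1 table had -22 points at véraison and -23 at maturity, and a median p of 2.68e-05 and 2.42e-05 against 3.66e-07 and 3.2e-07 for the shared ones. The table of maturity against véraison listed a CG region that was higher at maturity over 251 (16.9%) of the losses found at véraison alone, and one that was lower over 2. It listed a lower region over 268 (16.6%) of those found at maturity alone, and a higher one over 3. Among the shared losses, 2.35% at véraison met a higher region and 3.4% at maturity a lower one. Losses found at 1 stage alone were picked as low in a library that the table of maturity against véraison uses again. These directions thus follow in part from the selection. For the remaining losses of 1 table, no CG difference between véraison and maturity was listed. Their level in the third library is not in these tables, except where a few overlapped a gain or a loss inside gene models of the other table.

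Where 2 tables listed the same start and end, a region could be followed through all 3 stages. A library's level was then the same in both tables, with 0 mismatches in 632, 123 and 162 CG regions for first growth, véraison and maturity. In 462 losses with identical ends in both tables, medians in CG stood at 37.5% (first growth), 12% (véraison) and 12% (maturity). The maturity level was within 5 points of the véraison level in 395 of them (85.5%), higher in 193, lower in 203 and equal in 66. These regions were picked for being low at both stages. The 6 with the largest losses at both included the chromosome 12 region of 94 bp above, with 81% (first growth), 9% (véraison) and 5% (maturity). On chromosome 12 (15745716 to 15746010) the levels were 100%, 29% and 20%. On chromosome 8, from 18061263 to 18061450, they were 63%, 0% and 0%. On chromosome 9, from 5502927 to 5503137, they were 92%, 31% and 28%. On chromosome 1 (9394626 to 9394977) they were 73%, 18% and 18%, and on chromosome 15 (12938109 to 12938168) 64%, 11% and 5%.

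A smaller set went down at véraison and back up. In 67 losses at véraison with identical ends in the table of maturity against véraison, medians stood at 39% (first growth), 14% (véraison) and 40% (maturity). They were picked for levels at least 2-fold above véraison at both other stages. The maturity level of these regions was within 10 points of first growth in 54 (80.6%), above it in 28 and below it in 35. How far this closeness comes from the selection cannot be told. On chromosome 13 (9118825 to 9118882) the levels were 100%, 43% and 100% in time order, and on chromosome 12 (11344145 to 11344193) 100%, 46% and 100%. On chromosome 10, from 9847499 to 9847577, they were 48%, 0% and 54%. These 3 regions span 58, 49 and 79 bp.

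Another 87 maturity losses with identical ends in that table were lower at maturity than at both earlier stages. Their medians stood at 43% (first growth), 38% (véraison) and 13% (maturity), and the véraison level was within 10 points of first growth in 69 (79.3%). They were picked for levels at least 2-fold above maturity at both earlier stages. How far the closeness of those levels comes from this selection cannot be told. On chromosome 11, from 9135257 to 9135573, the levels were 75%, 86% and 10% in time order. On chromosome 16, from 18218863 to 18219459, 597 bp had 69%, 65% and 9%. Of the véraison losses, 39 (1.48%) overlapped a CG region listed as lower at maturity than at véraison, where 4.87% of all CG regions of the véraison table did. With identical ends there was 1, with 56%, 21% and 8% in time order. The losses were picked for a low véraison level and the gains for a high one, so these shares follow in part from the selection. CG losses inside gene models had 2.89%, and gains outside and inside them 15.9% and 21.5%. Among the 462 losses with identical ends in both tables against first growth, 8 were at least 10 points lower at maturity than at véraison and 9 at least 10 points higher. The lowest of these relative to véraison, on chromosome 13 (13074767 to 13075687), had 68%, 31% and 17%. These examples of both sets were picked with their values known.

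**Figure D2:**
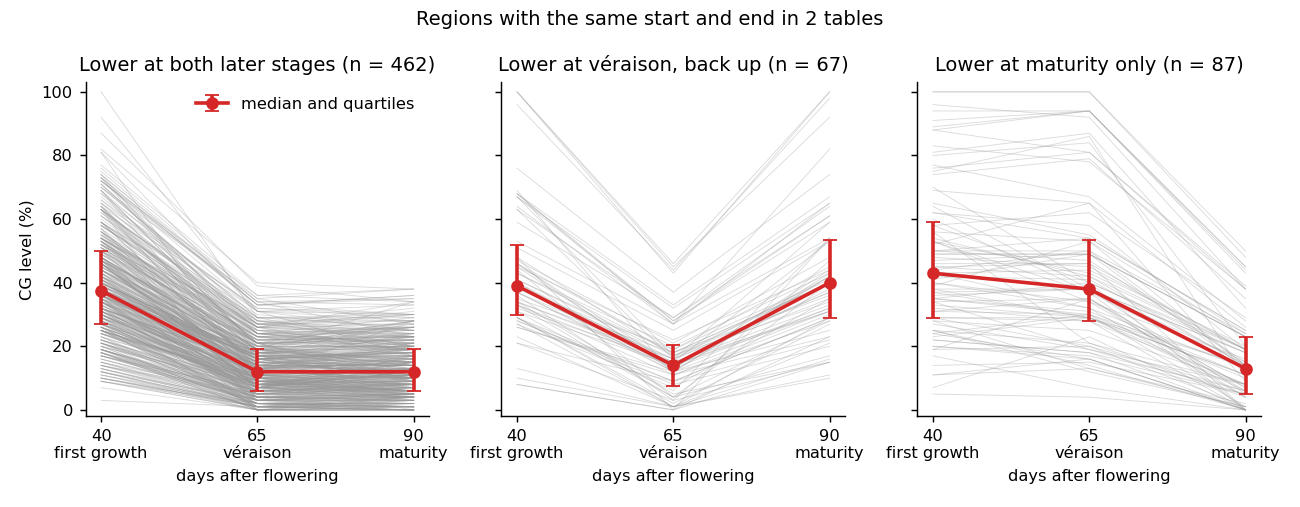
CG level in percent against days after flowering for losses with the same start and end in 2 tables; grey lines are regions, and red points with bars are medians and quartiles. The median stays at 12% at véraison and maturity in the left panel (n = 462), returns to 40% at maturity in the middle (n = 67) and falls to 13% only at maturity on the right (n = 87).

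CHG methylation, which is kept by its own methyltransferase together with a histone mark, moved the same way where it was listed. At véraison 352 losses (13.4%, exact 95% interval 12.1 to 14.7%) overlapped a CHG region that was lower, and 4 overlapped one that was higher. At maturity the numbers were 335 (12.1%, 10.9 to 13.4%) and 5. Of all CG regions, 11% at véraison and 10% at maturity overlapped a lower CHG region, and 3.64% and 4.13% a higher one. In the overlapped CHG regions the median was 14% at véraison and 37% at first growth, and 12% at maturity and 38% at first growth. Those 355 and 341 CHG regions were 7.46% and 6.64% of all lower CHG regions on numbered chromosomes. CG losses inside gene models had similar shares, 14.0% (11.9 to 16.3%) and 13.3% (11.3 to 15.5%). The test of that difference was not run, because regions of 1 library are not replicates of a stage.

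CHH methylation showed another pattern, with most overlapped CHH regions higher in the later library. At véraison 452 losses (17.1%, exact 95% interval 15.7 to 18.6%) overlapped a higher CHH region and 49 (1.86%) a lower one. At maturity 406 (14.7%, 13.4 to 16.1%) overlapped a higher one and 92 (3.33%) a lower one. Over all CG regions, 12% at véraison and 10.4% at maturity overlapped a higher CHH region, and 1.21% and 2.06% a lower one. Nearly all CHH regions against first growth were higher, so the direction says little. In the overlapped CHH regions that were higher the median was 34% at véraison and 10% at first growth, where all higher CHH regions of that table had 20% and 6%. At maturity they had 36%, against 11% at first growth. The CG losses that overlapped them had a median CG level of 19% at either later stage, against 44% at first growth. Those CG levels are of whole losses, with median lengths of 497.5 bp at véraison and 505.5 bp at maturity. The CHH regions had medians of 80 and 84 bp, and the CG level within them is not in these tables.

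Longer regions have more room for an overlap, so shares were also read within lengths. Among CG regions of at least 300 and under 600 bp, a higher CHH region overlapped 19.6% (exact 95% interval 17.4 to 21.8%) of losses outside gene models, 8.33% (5.94 to 11.3%) of losses inside them and 3.66% (1.35 to 7.79%) of gains outside at véraison. At maturity the shares were 15.0% (13.1 to 17.1%), 7.48% (5.21 to 10.3%) and 6.02% (3.24 to 10.1%). A lower CHG region overlapped 12.5% of losses outside and 14.0% of losses inside gene models of that length at véraison. At maturity the shares were 11.6% outside and 15.0% inside. In regions of 600 bp or more the order was the other way, with 15.1% outside and 9.76% inside at véraison. At maturity those longer regions had 14.4% outside and 11.6% inside. These intervals cover counting over regions only.

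**Figure D3:**
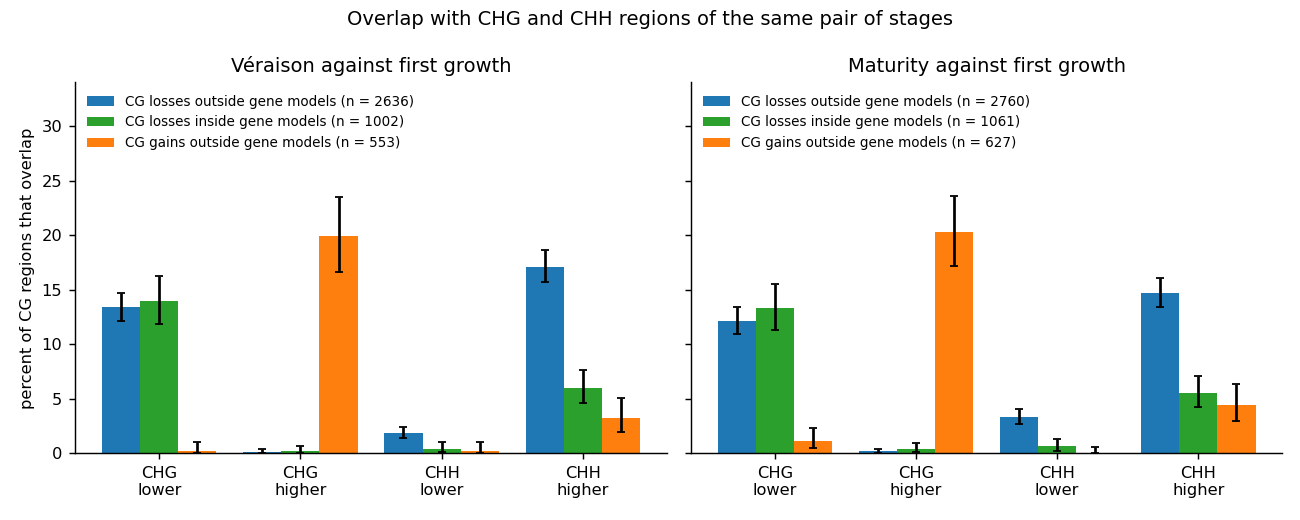
Percent of CG regions that overlap a lower or higher CHG or CHH region of the same pair of stages by at least 1 bp, with exact 95% intervals, for losses outside gene models (blue), losses inside (green) and gains outside (orange). Losses outside gene models met higher CHH regions in 17.1% at véraison and 14.7% at maturity, against 5.99% and 5.56% for losses inside.

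CHH losses were few, and CHH gains many. Of 629 lower CHH regions at véraison, 53 (8.43%) overlapped a CG loss outside gene models, against 589 (0.339%) of 173536 higher ones. At maturity, 102 (12.2%) of 836 lower CHH regions did, against 514 (0.358%) of 143497. The overlapped lower CHH regions had a median of 2% at véraison and 14% at first growth, and the same 2% and 14% for maturity against first growth. CG, CHG and CHH were all lower at 13 losses at véraison (0.493%) and 23 at maturity (0.833%). Of all CG regions, 0.335% at véraison and 0.561% at maturity overlapped both a lower CHG and a lower CHH region. On chromosome 15, from 18313146 to 18314009, this held at both stages, with CG at 31% (first growth), 5% (véraison) and 7% (maturity). CHG there was 49%, 14% and 9% in time order. On chromosome 17, from 218847 to 219250, CG was 26%, 2% and 1%, and CHG was 21%, 0% and 0%. On chromosome 1, from 8302608 to 8302874, CG was 45% at maturity and 97% at first growth, CHG 42% and 100%, and CHH 0% and 17%. These examples too were picked with their values known.

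The losses lay at a range of distances from gene models. The tables name 9490 models with coordinates, those that overlap at least 1 entry of the series, and models without an entry are not in this set. From the midpoint, the nearest listed model was a median of 8.57 kb away for véraison losses (quartiles 2.62 and 20.7 kb) and 8.97 kb for maturity losses (2.79 and 22 kb). For gains outside gene models the medians were 12.1 and 13.6 kb. Within 3 kb of a listed model lay 27.5% (exact 95% interval 25.8 to 29.3%) of véraison losses and 26.5% (24.8 to 28.2%) of maturity losses. All CG regions outside gene models had 26.9% and 25.6%. The losses themselves are 2636 of those 3189 regions and 2760 of those 3387, so a near share is partly built in. Gains outside gene models had 23.9% (20.4 to 27.6%) at véraison and 21.9% (18.7 to 25.3%) at maturity. Over 50 kb away lay 7.28% and 6.85% of losses, and 15.6% and 16.9% of gains. In the 3 kb flanks, 400 losses lay upstream and 281 downstream at véraison, and 419 and 271 at maturity. The gains were 47 upstream and 59 downstream at véraison, and 71 and 48 at maturity. The size of the loss hardly varied with distance, with class medians of -22 to -24 points at véraison and -21 to -24 at maturity.

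**Figure D4:**
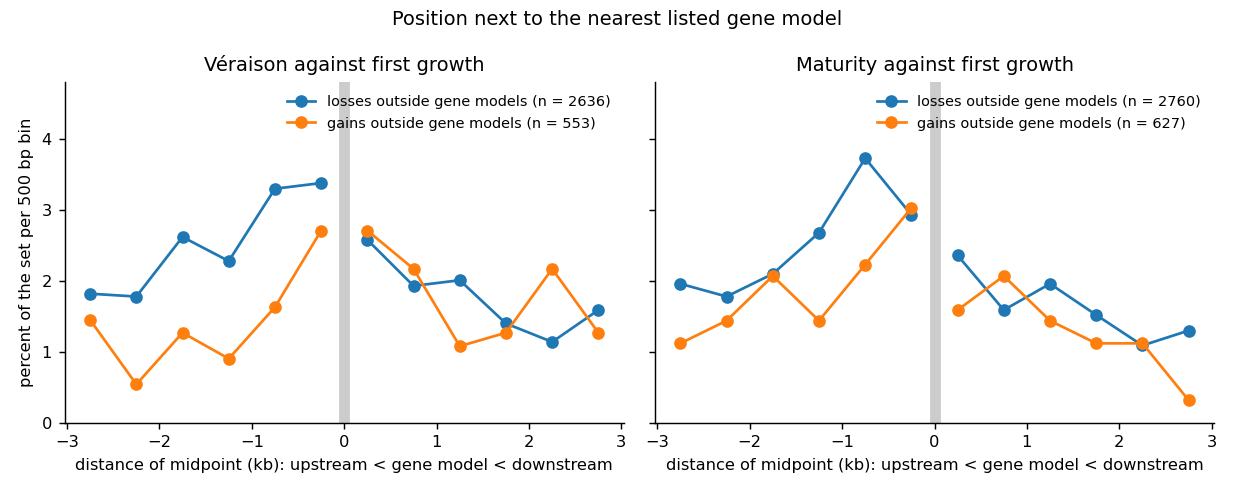
Percent of each set with its midpoint in bins of 500 bp upstream (left of the grey bar) and downstream of the nearest listed gene model, for CG losses (blue) and gains (orange) outside gene models. Véraison losses peak at 3.38% in the nearest upstream bin and maturity losses at 3.73% in the next one.

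The authors' annotation left some regions at gene edges without a model. Of the véraison losses, 88 (3.34%) shared bases with a model listed elsewhere in the tables, and 86 of them crossed its end at the higher coordinate. Of the maturity losses, 70 (2.54%) did, 68 of them at that end. Crossings of the lower-coordinate end numbered 0 in both, and 2 regions of each table spanned a whole model. Without the regions that share bases with a listed model, 25% of véraison losses and 24.6% of maturity losses lay within 3 kb.

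Losses were spread over all 19 chromosomes and were denser in windows with more listed gene models. Their number per Mb ran from 4.56 on chromosome 8 to 7.83 on chromosome 15 at véraison, and from 4.3 on chromosome 10 to 8.27 on chromosome 15 at maturity. Median differences by chromosome stayed between -25 and -21 points at véraison and between -26 and -21 at maturity. Across 419 windows of 1 Mb, the number of losses had a Spearman rho of 0.62 with the number of listed gene models at véraison and also at maturity. For the gains it was -0.1 and -0.15. The 105 windows with the most models (29 to 45) held a mean of 9.75 losses at véraison and 10.4 at maturity, against 3.1 and 3.31 in the 105 with the fewest (0 to 15). The means for gains were 1.16 and 1.11 in the windows with the most models and 1.51 and 1.7 in those with the fewest. Models were listed through overlap with entries of these same libraries, so these counts share their source, and the part of coverage or mappability in them was not tested.

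**Figure D5:**
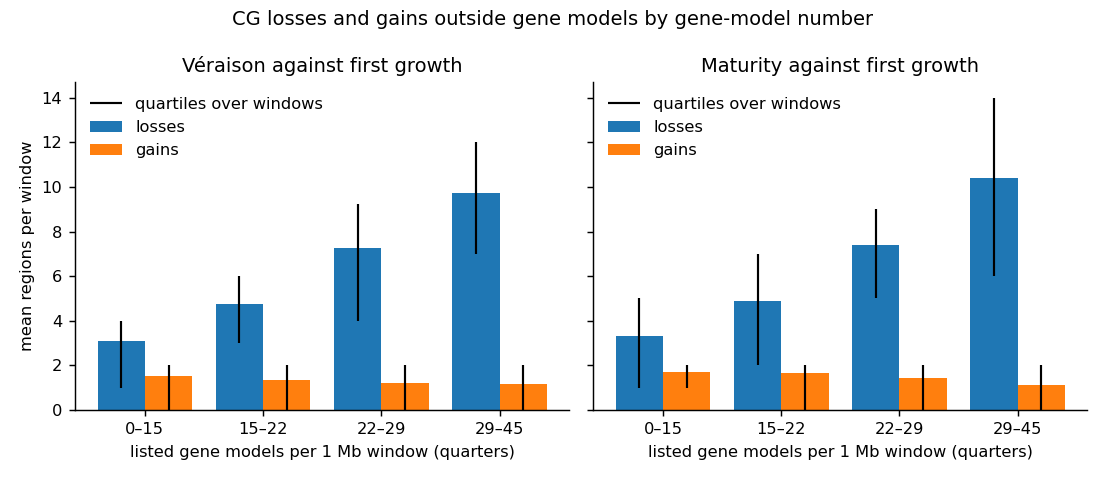
Mean number of CG losses (blue) and gains (orange) outside gene models per 1 Mb window, in 4 sets of windows ranked by their number of listed gene models; black lines are quartiles over windows. Mean losses climb from left to right, with 9.75 (véraison) and 10.4 (maturity) in the windows with the most models and 3.1 and 3.31 in those with the fewest, whereas mean gains stay below 2.

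Single losses were mostly isolated. Neighbouring losses were a median of 78.9 kb apart at véraison and 72.3 kb at maturity, and after joining those at most 100 bp apart there were 2491 and 2637 places. A CG gain outside gene models lay within 1 kb of 28 véraison losses and 32 maturity losses. The window with the most losses, on chromosome 15 from 18000001 to 19000000, held 36 at véraison and 34 at maturity, against 2 and 1 gains. On chromosome 3 (3000001 to 4000000) there were 24 and 26 losses, and on chromosome 9 (1000001 to 2000000) 24 and 21. Only 3 of the 419 windows held no loss.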

How the data were processed

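The authors deposited 9 tables of regions differing between 2 libraries, and per the file headers each gives an average methylation level per library as a fraction, taken here as percent. Per the submitters' processing notes, BSMAP 2.73 was used. No source used here names the region caller, the coverage filter, the genome build or the annotation. The deposited p-value column is headed as a chi-square statistic, but its values reach at most 0.00999823, so they were read as p-values without stated adjustment. The tables hold no read counts, so depth is unknown and no level has an interval.

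Regions of the 2 CG tables against first growth were selected by annotation and direction with Python 3.11.15 and pandas 2.3.3. The members and lists were chosen with earlier results of these data known. Named regions follow a rule: per pair of stages the 5 largest decreases, the 5 smallest p, the 2 longest and those nearest to 0, then the 6 largest losses with identical ends in both tables and the 3 fullest windows of 1 Mb. Exceptions are stated beside them. Overlap means at least 1 bp. Shares have exact Clopper-Pearson 95% intervals (scipy 1.17.1). With 1 library per stage no test between stages was made. Overlap steps were tested on regions of the tables, in place or shifted by a set distance, and joining and distance steps on simulated regions. The 9490 gene model identifiers gave 0 matches among 29591 genes of assembly ASM3070453v1, so no function was assigned, and no sequence is shown. Coordinates are those of the authors' tables, and whether starts count from 0 or 1 is not stated.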

Additional observations from a re-analysis of the deposited data

Results flagged for a closer look

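At a few places regions listed in opposite directions against first growth at the 2 later stages overlapped, and this difference was not tested. Of the véraison losses outside gene models, 14 overlapped a CG region that was higher at maturity than at first growth, and 11 maturity losses overlapped one that was higher at véraison. These were 0.531% and 0.399% of the losses, where 0.893% and 0.83% of all CG regions overlapped one of the other direction. The overlap was 1 bp in 2 of the 14 and 2 of the 11, and covered at least 0.5 of the shorter region in 6 and 4, so many are neighbouring stretches. Only 2 such places outside gene models had identical ends in both tables. On chromosome 6, from 14976887 to 14976993, the CG level stood at 8% (first growth), 0% (véraison) and 23% (maturity), or -8 and 15 percentage points against first growth. On chromosome 17, from 11132216 to 11132426, it was 7%, 23% and 0%, or 16 and -7 points.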

How the results depend on the processing

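The 14 counts, medians and shares were recomputed under alternative settings, 1 of them chosen after seeing the data, which gave 88 values. Of these, 67 stayed within 1.5 times the count or the 95% interval of the value, and 21 did not. A change of sign could not occur, because the regions were selected as losses and counts and shares have no sign. With differences of at least 20 percentage points only, 1679 losses remained in number at véraison, the median was -28 points at both stages, 46.9% of véraison losses overlapped a maturity loss, and 22.5% (véraison) and 20.4% (maturity) overlapped a CHH region. With regions of at least the median length, there were 1526 and 1613 losses, 91.9% and 89.8% of CG regions outside gene models were lower, the median at maturity was -22 points, 47.8% and 46.7% overlapped a loss of the other table, and 24.6% and 23.1% a CHH region. With the largest p allowed divided by 10, 85.1% and 83.8% were lower. An overlap of at least 0.5 of the shorter region gave 14.3% and 14.2% for CHH. Leaving out regions that share bases with any listed gene model, the alternative added after seeing the data, gave 25% and 24.6% within 3 kb. The first 3 settings leave fewer regions by construction, and beyond that the cause was not tested. No replicate could be left out, and no paired analysis was possible because each stage has 1 library. Depth limits every level by an unknown amount.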
